A study of Mus musculus with 6 samples.

Results

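The nucleolus is where ribosomes are begun. RNA polymerase I transcribes the ribosomal RNA precursor there, small nucleolar ribonucleoproteins (snoRNPs) guide its chemical modification and early cleavage, and large sets of assembly factors fold and cut it into the precursors of the small and the large ribosomal subunit. Many genes of this machinery are known targets of MYC, and high ribosome production is a known feature of MYC-driven B cell lymphoma.

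The genes described here are 40 mouse genes of that machinery, chosen by name: RNA polymerase I and its factors, snoRNP proteins, assembly factors of both subunits, and abundant proteins of the nucleolus. Of these, 39 were measured, each by 1 probe set, among 18784 genes on the arrays; Noc2l was not analysed here. The rule picks genes by name and uses no measured value, but the set was drawn up with earlier results of these data known.

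RNA came from cultured B lymphoma cells in which both alleles of the tumour suppressor Arf were deleted and which carried the Eu-myc transgene, MYC driven in B cells by an immunoglobulin enhancer, together with Bcl-2. The Dhx9.1241 group had 3 arrays from such cells transduced with a short hairpin RNA named for Dhx9, a helicase that unwinds RNA and DNA. The Rluc.713 group had 3 arrays from the same kind of cells with a control hairpin named for Renilla luciferase. Both groups share the Arf deletion, Eu-myc, Bcl-2 and growth on irradiated Arf-/- mouse embryonic fibroblasts, and the labels name no drug and no age. In mice the ARF protein binds the nucleolar protein encoded by Npm1, so all 6 arrays describe a nucleolus without ARF. The series title concerns DHX9 as a modifier of the response to the BCL-2 family inhibitor ABT-737; the arrays compare the 2 hairpins alone. These arrays hold only 1 Dhx9 hairpin, and the labels do not state whether a group's arrays came from separate cultures, so p-values reflect array-to-array spread that may be only technical.

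Values are log2 signals after robust multi-array average (RMA), a procedure meant to bring all arrays to a common distribution. A change in total RNA per cell can therefore not be read from these values. The match between arrays was not exact, as their medians ran from 8.43 to 8.511. Results after further normalization are given at the end. The signal of a probe set depends on its probes as well as on the transcript, and signals are therefore compared between arrays and not between genes. In RNA from a mixed culture, fewer cells of a type and less RNA per cell cannot be told apart. Dhx9 stood at 11.46, 11.43 and 11.38 on the Dhx9.1241 arrays, against 12.40, 12.48 and 12.36 on the Rluc.713 arrays, which is a difference of -0.99 (SE 0.053, limma adjusted p = 0.000129). Sample titles name Dhx29 instead; Dhx29 differed by 0.04 on the log2 scale (adjusted p = 0.857), and the arrays are called by their hairpin. Of 10 measured B cell markers 8 lay at or above the median signal of all genes, with Cd79a at 13.69 in Dhx9.1241 and 13.80 in Rluc.713 cells; of 15 markers of fibroblasts, which form the feeder layer, 5 did. The summed signal of 12 myeloid markers was 13.00 to 13.08 on the log2 scale on the Dhx9.1241 arrays, against 13.20 to 13.29 on the Rluc.713 arrays, and 4 of the 12 passed the test below as lower in Dhx9.1241. Fcgr3 and Itgam, of the same list, lay above on every Dhx9.1241 array without passing (log2 changes 0.22 and 0.21, adjusted p 0.0972 and 0.152). Rluc.713 replicate 1 stood apart from the rest: limma's array weights gave it 0.268, against 1.08 to 2.01 for the other 5 arrays. Some counts are therefore also given without it, while counts by role group are from all 6 arrays only. By median the 15 fibroblast markers were highest on that array, but Fn1 was highest on Rluc.713 replicate 3 and Sparc on Dhx9.1241 replicate 1. The median deviation of the 15 from each gene's mean over the 6 arrays (log2) was -0.020, 0.017 and -0.029 on Dhx9.1241 replicates 1 to 3, against 0.159, -0.051 and -0.046 on Rluc.713 replicates 1 to 3. Cav1 alone of the 15 passed the test below, as lower in Dhx9.1241 (log2 change -0.25, limma adjusted p = 0.0485). The part of the fibroblast markers in the results was not tested.

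None of the 39 nucleolar genes passed the limma test for a difference between the hairpins, while 590 of all 18784 genes did (3.14%, at a Benjamini-Hochberg adjusted p under 0.05 over all genes), 389 of them higher (2.07%) and 201 lower (1.07%) in Dhx9.1241. The smallest adjusted p among the nucleolar genes was 0.267. At an unadjusted p under 0.05 there were 3 of them, 2 higher and 1 lower (7.69%, against 14.1% of all genes, 8.5% higher and 5.63% lower). Among the brightest 25% of genes by mean signal, which held 36 of the 39, the share was 22.3% (11.5% higher and 10.8% lower). For fits without 1 array that share was not computed for the brightest genes. Leaving out 1 array at a time left 126 to 497 of all genes higher and 70 to 399 lower, and none of the 39 passed in any of these 6 fits. Without Rluc.713 replicate 1, at an unadjusted p under 0.05, 2 of the 39 were higher (5.13%, against 13.1% of all genes) and 6 lower (15.4%, against 8.92%). Without any of the other 5 arrays 0 to 1 of the 39 was higher, against 5.42% to 7.64% of all genes, and 0 were lower, against 3.83% to 5.04%. With all arrays the changes of the 39 genes ran from -0.14 to 0.14 on the log2 scale around a median of -0.005, against a median of 0.005 over all genes, and 17 were positive and 22 negative.

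The intervals rest on array-to-array spread, which may be only technical, so they bound each gene's difference between these arrays only. Each of the 39 genes had a 95% interval inside a change of 1.3-fold in either direction (0.38 on the log2 scale), as had 92.7% of all genes and 95.2% of the brightest 25%. An interval inside 1.2-fold (0.26) was found for 35 of the 39, for 13883 of all 18784 genes and for 3750 of the 4696 brightest. The widest bounds were -0.31, for Bysl, and 0.29, for Mrto4. Most of the probe sets were bright: 36 of the 39 were among the brightest 25% of all genes by mean signal and 23 among the brightest 10%. The median SE was 0.052, the same as over the brightest 25% of genes (0.052), against 0.061 over all genes.

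**Figure D1:**
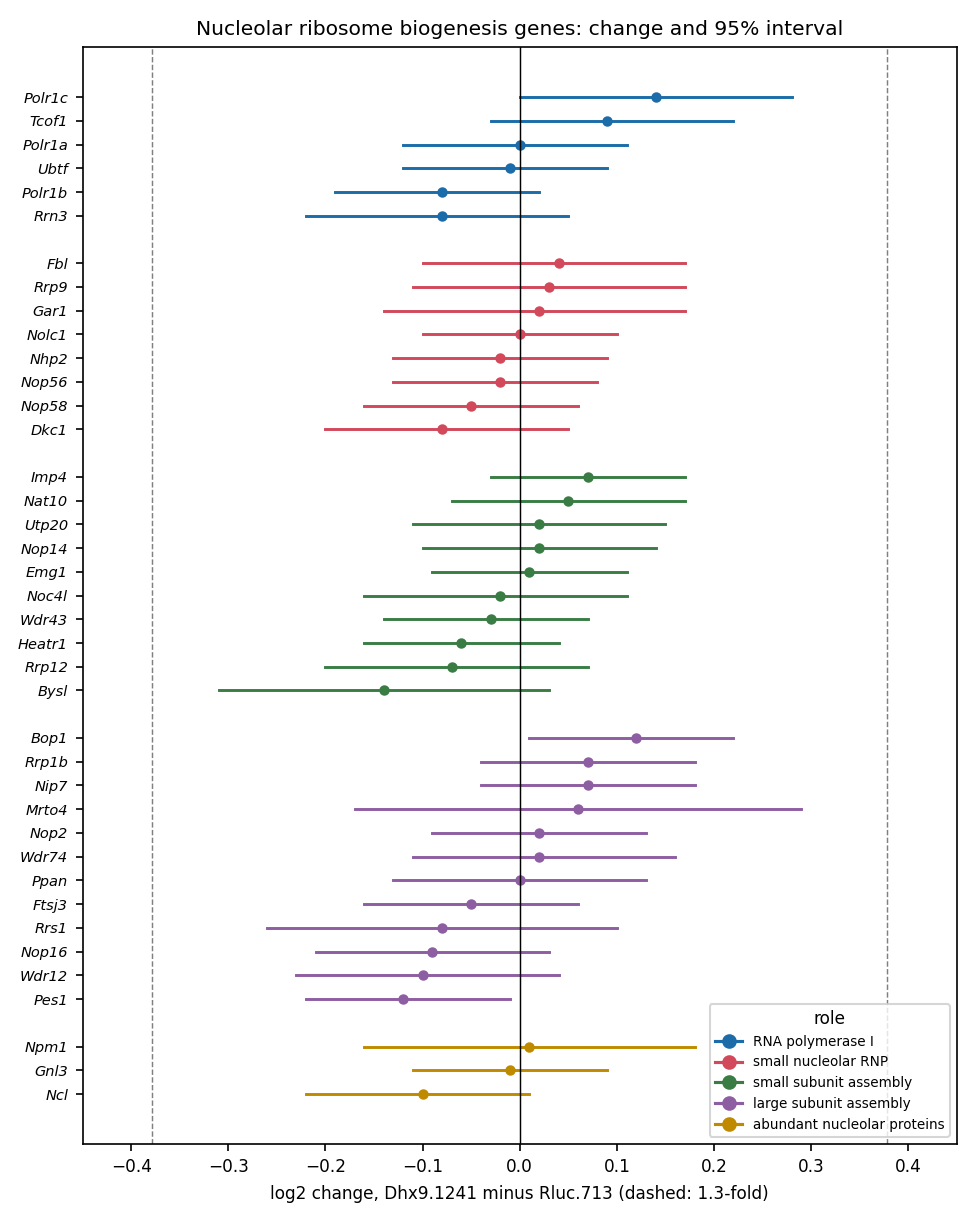
Log2 change, Dhx9.1241 minus Rluc.713, of the 39 nucleolar genes (points) with 95% intervals from limma (lines), grouped and coloured by role and ordered by change; dashed lines mark a 1.3-fold change. Every interval lies between -0.31 and 0.29, and each group holds positive and negative changes.

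The SD of a nucleolar gene had a median of 0.031 over the 3 Dhx9.1241 arrays and of 0.045 over the 3 Rluc.713 arrays, against 0.059 and 0.079 over all genes and 0.041 and 0.051 over the brightest 25%. The arrays of the groups did not overlap for 13 of the 39 genes, 6 above and 7 below the Rluc.713 arrays. This is 33.3%, against 20.1% of all genes (11.6% above and 8.51% below) and 37.0% of the brightest 25% of genes. Emg1, an RNA methyltransferase of small-subunit assembly, is an example of how small such a gap could be, with a log2 change of 0.01 (interval -0.09 to 0.11).

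Because the genes are known for their link to MYC, their promoters were searched for the E-box CACGTG, the site that MYC and its partner MAX bind. The windows, from RefSeq on build GRCm38.p6, ran from 250 bases before to 50 after each start site, and the motif reads the same on both strands. Of 33 measured genes with a window, 6 held it (18.2%), against 9.52% of the 15060 tested genes with a window. In the wider list of other factors of ribosome production, described below, 18 of 85 genes with a window held it (21.2%). The share is therefore not particular to the nucleolar genes, whose machinery is known for MYC targets, and the difference in share was not tested. Of the nucleolar genes, Bop1, Fbl, Npm1, Rrp12, Rrs1 and Tcof1 had no entry. The sites are shown 5′ to 3′ on the gene's strand, with the E-box in capitals and up to 12 bases on either side, since MYC is the transgene of the model:
Imp4, chr1:34439696-34439725, plus strand: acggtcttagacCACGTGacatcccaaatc
Nop2, chr6:125131811-125131840, plus strand: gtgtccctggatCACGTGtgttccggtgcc
Utp20, chr10:88826765-88826789, minus strand: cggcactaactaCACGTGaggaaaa
Pes1, chr11:3963965-3963994, plus strand: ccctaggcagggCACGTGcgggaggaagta
Rrn3, first site, chr16:13780472-13780501, plus strand: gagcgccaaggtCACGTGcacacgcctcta
Rrn3, second site, chr16:13780639-13780668, plus strand: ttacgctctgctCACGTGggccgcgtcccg
Wdr43, chr17:71616220-71616249, plus strand: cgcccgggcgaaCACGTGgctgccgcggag

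In Imp4, Nop2 and Rrn3 the sites lie upstream of the start, at 121, at 60, and at 215 and 48 bases before it. In Pes1, Wdr43 and Utp20 they lie just inside the transcript, beginning at base 3, 18 and 38. The genes with an E-box had changes of both signs and none passed the test: the log2 change was 0.07 for Imp4, 0.02 for Nop2, 0.02 for Utp20, -0.12 for Pes1, -0.08 for Rrn3 and -0.03 for Wdr43. A match is a description of the letters and shows no binding. The mouse gene Myc itself stood at 13.94, 13.93 and 13.94 on the Dhx9.1241 arrays, against 13.71, 13.84 and 13.83 on the Rluc.713 arrays. The groups did not overlap, but the log2 change of 0.14 did not pass the test (SE 0.052, adjusted p = 0.239). It passed in 1 of the 14 alternative analyses, that under a trended and robust variance model (adjusted p = 0.0174), and whether its probe set reads the transgene was not tested.

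RNA polymerase I and its factors come first in ribosome production. Polr1a and Polr1b encode the large subunits that form the catalytic core, Polr1c a subunit shared with RNA polymerase III, Rrn3 the factor that makes the polymerase competent to initiate, Ubtf the factor that binds ribosomal DNA, and Tcof1 treacle, which promotes ribosomal RNA synthesis. With all 6 arrays none of the 6 genes passed the limma test, 1 was higher at an unadjusted p under 0.05, and their median change was -0.01. Polr1c stood at 11.73, 11.69 and 11.66 on the Dhx9.1241 arrays, against 11.58, 11.63 and 11.43 on the Rluc.713 arrays. All Dhx9.1241 arrays were above all Rluc.713 arrays, and the mean difference was 0.14 (interval 0.00 to 0.28, SE 0.061, unadjusted p = 0.0469, adjusted p = 0.343). Tcof1 stood at 11.61, 11.67 and 11.51 on the Dhx9.1241 arrays, against 11.46, 11.53 and 11.51 on the Rluc.713 arrays. Its groups met at 11.51, and the log2 change was 0.09 (SE 0.055, adjusted p = 0.562). Polr1b and Rrn3 lay below the Rluc.713 arrays on every Dhx9.1241 array, each with a log2 change of -0.08 (adjusted p = 0.525 for Polr1b and 0.644 for Rrn3). Rrn3 kept within 12.07 to 12.08 on the Dhx9.1241 arrays, while Rluc.713 replicate 3 was at 12.27. Polr1a had a change of 0.00 and Ubtf of -0.01, with intervals of -0.12 to 0.11 and -0.12 to 0.09.

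Among proteins of the snoRNPs, none of 8 passed and 0 were at an unadjusted p under 0.05 with all 6 arrays. Fbl encodes fibrillarin, the RNA methyltransferase of box C/D snoRNPs, and Nop56 and Nop58 its partner proteins. Rrp9 encodes a protein specific to the snoRNP of early precursor cleavage. Dkc1 encodes dyskerin, the pseudouridine synthase of H/ACA snoRNPs, Nhp2 and Gar1 its partners, and Nolc1 a chaperone of snoRNPs. Fbl stood at 13.94, 13.98 and 13.81 on the Dhx9.1241 arrays, against 13.92, 13.83 and 13.87 on the Rluc.713 arrays. The groups overlapped, with the lowest value of all in Dhx9.1241 replicate 3 (log2 change 0.04, interval -0.10 to 0.17, adjusted p = 0.904). Dkc1 stood at 12.06, 12.02 and 12.10 in Dhx9.1241, against 12.06, 12.17 and 12.19 in Rluc.713, and Rluc.713 replicate 1 lay within the Dhx9.1241 range (log2 change -0.08, SE 0.054, adjusted p = 0.677). Without that array the log2 change of Dkc1 was -0.12 (limma adjusted p = 0.208). Nop58 stood at 11.91, 11.83 and 11.91 in Dhx9.1241, against 11.92, 11.94 and 11.94 in Rluc.713. The lowest Rluc.713 array lay just above the highest Dhx9.1241 array, and the mean difference was -0.05 (interval -0.16 to 0.06, adjusted p = 0.779). The other 5 genes lay between a change of -0.02, for Nop56 and Nhp2, and 0.03, for Rrp9, with Gar1 at 0.02 and Nolc1 at 0.00.

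**Figure D2:**
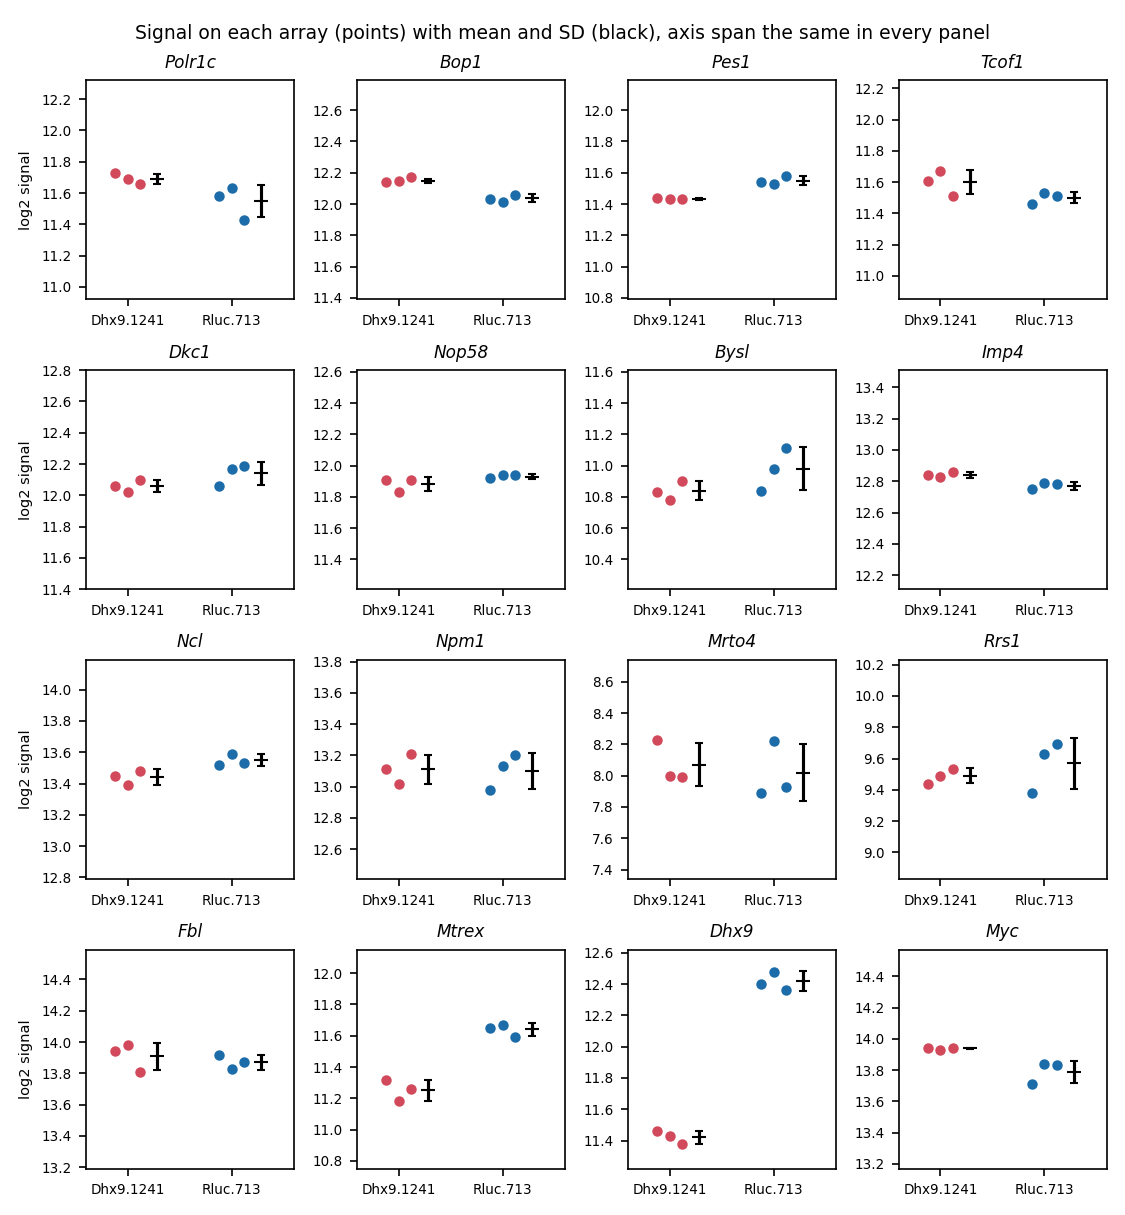
Log2 signal on each array (points; Dhx9.1241 left, Rluc.713 right) with group mean and SD in black (n = 3 each), for 13 nucleolar genes and for Mtrex, Dhx9 and Myc; every panel spans the same range of signal. Dhx9 and Mtrex separate clearly by hairpin, while in Polr1c, Bop1, Pes1, Imp4, Nop58 and Ncl the groups part by at most 0.14 in the mean and in the remaining nucleolar genes they overlap.

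The 10 assembly factors of the small subunit had changes between -0.14 and 0.07, 5 positive and 5 negative, and none at an unadjusted p under 0.05 with all 6 arrays. Bysl encodes bystin, needed for maturation of the small subunit. It stood at 10.83, 10.78 and 10.90 on the Dhx9.1241 arrays, against 10.84, 10.98 and 11.11 on the Rluc.713 arrays. Its Rluc.713 arrays were spread over a wider range, replicate 1 lay inside the Dhx9.1241 range, and the mean difference was -0.14 (interval -0.31 to 0.03, SE 0.074, adjusted p = 0.496). Without Rluc.713 replicate 1 the log2 change of Bysl was -0.21 (limma adjusted p = 0.0925). Imp4, a protein of the processome that makes the first cleavages, stood at 12.84, 12.83 and 12.86 in Dhx9.1241, against 12.75, 12.79 and 12.78 in Rluc.713. All Dhx9.1241 arrays were above all Rluc.713 arrays, by a log2 change of 0.07 (SE 0.045, adjusted p = 0.604). Heatr1, a processome factor also needed for RNA polymerase I transcription, lay below on all Dhx9.1241 arrays (-0.06, interval -0.16 to 0.04). The RNA acetyltransferase gene Nat10 had a change of 0.05. The processome genes Nop14, Utp20, Noc4l and Wdr43 lay between -0.03 and 0.02, and Rrp12, which acts in precursor export, stood at -0.07.

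With all 6 arrays, assembly factors of the large subunit held the only other genes at an unadjusted p under 0.05, Bop1 and Pes1, whose changes had opposite signs. Bop1, Pes1 and Wdr12 encode the members of the PeBoW complex, which is needed to process the large-subunit RNA. Bop1 stood at 12.14, 12.15 and 12.17 on the Dhx9.1241 arrays, against 12.03, 12.01 and 12.06 on the Rluc.713 arrays. Pes1 stood at 11.44, 11.43 and 11.43 on the Dhx9.1241 arrays, against 11.54, 11.53 and 11.58 on the Rluc.713 arrays. The groups did not overlap for either gene: Bop1 was higher in all Dhx9.1241 arrays and Pes1 lower. On the log2 scale Bop1 differed by 0.12 (interval 0.01 to 0.22, SE 0.045, adjusted p = 0.267) and Pes1 by -0.12 (interval -0.22 to -0.01, SE 0.045, adjusted p = 0.271), which is 1.09-fold in each case. Wdr12 had a change of -0.10 (interval -0.23 to 0.04) with overlapping groups. Neither Bop1 nor Pes1 passed in any of the 14 alternative analyses, in which the change of Bop1 ran from 0.09 to 0.13 (adjusted p 0.0513 to 0.65) and that of Pes1 from -0.14 to -0.10 (adjusted p 0.0917 to 0.567).

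The other 9 measured large-subunit factors lay between -0.09, for Nop16, and 0.07, for Nip7 and Rrp1b. Nip7, which acts in precursor processing, and Rrp1b each lay above the Rluc.713 arrays on all Dhx9.1241 arrays. The RNA methyltransferase gene Nop2 stood at 0.02, Wdr74 at 0.02, Ppan at 0.00 and the methyltransferase gene Ftsj3 at -0.05. Mrto4 and Rrs1 had the dimmest probe sets of the 39, and the largest SEs. Mrto4, whose yeast counterpart acts in late steps of large-subunit assembly, stood at 8.23, 8.0 and 7.99 in Dhx9.1241, against 7.89, 8.22 and 7.93 in Rluc.713, with 1 high array in each group (log2 change 0.06, SE 0.10, adjusted p = 0.919). Rrs1, known from yeast for bringing the smallest ribosomal RNA into the large subunit, stood at 9.44, 9.49 and 9.53 in Dhx9.1241, against 9.38, 9.63 and 9.69 in Rluc.713, where replicate 1 was the lowest of all arrays (log2 change -0.08, SE 0.080, adjusted p = 0.81). Without Rluc.713 replicate 1 the log2 change of Rrs1 was -0.17 (limma adjusted p = 0.108).

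The last group holds abundant nucleolar proteins. Ncl encodes nucleolin, which binds ribosomal RNA and chromatin, and stood at 13.45, 13.39 and 13.48 on the Dhx9.1241 arrays, against 13.52, 13.59 and 13.53 on the Rluc.713 arrays. It was lower on every Dhx9.1241 array, by a log2 change of -0.10 that did not pass the test (interval -0.22 to 0.01, SE 0.050, unadjusted p = 0.0694, adjusted p = 0.424). Npm1, the gene of nucleophosmin, a histone and ribosome chaperone that binds ARF where ARF is present, stood at 13.11, 13.02 and 13.21 in Dhx9.1241, against 12.98, 13.13 and 13.20 in Rluc.713. The groups overlapped (log2 change 0.01, SE 0.074, adjusted p = 0.981). Gnl3, which encodes the GTP-binding protein nucleostemin, had a change of -0.01 (interval -0.11 to 0.09).

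Array by array, the nucleolar genes shared small deviations. The median deviation of the 39 genes from their own means was 0.010, -0.013 and -0.012 on Dhx9.1241 replicates 1 to 3, against -0.041, 0.022 and 0.031 on Rluc.713 replicates 1 to 3. Over the 4696 genes that make up the brightest 25%, these medians were 0.017, -0.013 and -0.003 in Dhx9.1241, against -0.035, 0.018 and 0.022 in Rluc.713, and there too Rluc.713 replicate 1 was the lowest and replicate 3 the highest. Rluc.713 replicate 1 held the lowest value of 15 of the 39 genes and the highest of 0, and Rluc.713 replicate 3 the highest value of 17. The arrays that differed most were of the same hairpin. The part of this shift in the results was not tested; without Rluc.713 replicate 1 the median change of the 39 genes was -0.022 and again none passed.

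**Figure D3:**
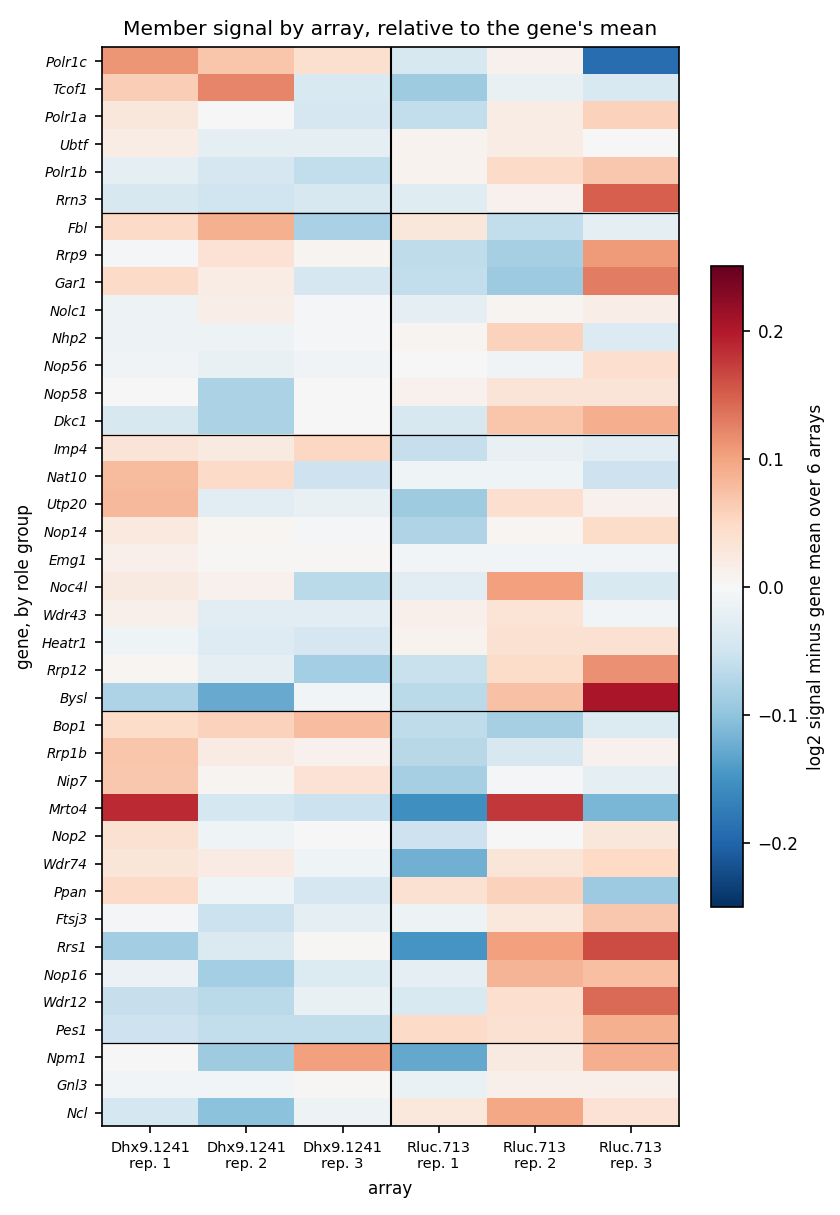
Log2 signal of each nucleolar gene (rows, by role group) on each array (columns; Dhx9.1241 left of the line, Rluc.713 right) minus the gene's mean over the 6 arrays, red above and blue below. Rluc.713 replicate 1 holds the lowest value of 15 genes and replicate 3 the highest of 17, while Bop1 and Pes1 part by hairpin in opposite directions.

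Beyond these genes, a wider list of 106 other factors of ribosome production, written from general knowledge with earlier results of these data known, was read from the same fit, with 102 measured. In it 1 gene fell and none rose in the limma test, against 1.07% and 2.07% of all genes. The gene that fell was Mtrex, which encodes MTR4, the RNA helicase that feeds the nuclear RNA exosome, a complex that trims the ribosomal RNA precursor and degrades by-products. Mtrex stood at 11.32, 11.18 and 11.26 on the Dhx9.1241 arrays, against 11.65, 11.67 and 11.59 on the Rluc.713 arrays. The groups were separated by more than their spread, with a log2 change of -0.39 (interval -0.51 to -0.26, SE 0.054, adjusted p = 0.00872), or 1.31-fold lower in Dhx9.1241. It passed in all 14 alternative analyses, including each of the 6 without 1 array, where the adjusted p reached 0.0498 without Dhx9.1241 replicate 3. The lower summed signal of the myeloid markers on the Dhx9.1241 arrays, whose members differed in sign, moved with this result, and its part was not tested.

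The other 12 measured exosome genes did not pass. Mphosph6, an exosome partner of MTR4, was the lowest of them, at a change of -0.19 (interval -0.33 to -0.05, adjusted p = 0.191), and the core subunit gene Exosc5 the highest, at 0.10. The median of the exosome genes was -0.008.

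Most genes of the wider list had a change below 0, of small size. Of the 102 genes 72 had a negative change (70.6%) and the median was -0.031, against 0.005 over all genes; at an unadjusted p under 0.05, 13 were lower (12.7%, against 5.63% of all genes and 10.8% of the brightest 25%) and 1 higher (0.98%, against 8.5% and 11.5%). Of the 102 genes 77 were among the brightest 25%. The number lower moved when 1 array was left out. It was 6 without Dhx9.1241 replicate 2 (5.88%, against 3.83% of all genes) and 6 without Rluc.713 replicate 3 (5.88%, against 4.35%). It was 7 without Rluc.713 replicate 2 (6.86%, against 4.31%), 8 without Dhx9.1241 replicate 3 (7.84%, against 4.39%) and 11 without Dhx9.1241 replicate 1 (10.8%, against 5.04%). Without Rluc.713 replicate 1 it was 24 (23.5%, against 8.92%). The median was -0.016 without Dhx9.1241 replicate 2, -0.019 without Rluc.713 replicate 3, -0.021 without Rluc.713 replicate 2 and -0.054 without Rluc.713 replicate 1. By array the median deviation of the list was 0.011, -0.047 and -0.010 in Dhx9.1241, against -0.032, 0.036 and 0.052 in Rluc.713, so Rluc.713 replicate 1 lay among the Dhx9.1241 arrays. The B cell markers had the same lean, with 9 of 10 negative and a median of -0.088, and with median deviations of -0.060, -0.051 and -0.017 in Dhx9.1241, against -0.014, 0.058 and 0.068 in Rluc.713. The exception, Ms4a1, was higher on every Dhx9.1241 array without passing (log2 change 0.31, limma adjusted p = 0.0717). The part of the B cell markers was not tested. The 35 small-subunit factors had a median of -0.06. Of them 28 had a negative change (80.0%, against 47.5% of all genes and 51.5% of the brightest 25%), and at an unadjusted p under 0.05 there were 6 lower (17.1%, against 5.63% and 10.8%). Pno1, which acts in the last steps of small-subunit maturation, had a change of -0.20 (interval -0.32 to -0.07, adjusted p = 0.113). Among the 35 large-subunit factors, with a median of -0.029, Noc3l had a change of -0.21 (interval -0.33 to -0.08, adjusted p = 0.0977) and the GTPase gene Gtpbp4 one of -0.16 (adjusted p = 0.182). Of the 10 further genes of RNA polymerase I transcription, the subunit gene Polr1e stood at 0.12 (adjusted p = 0.268) and Polr1d at -0.15 (0.249). None of these 5 genes, which were chosen as examples after their values were seen, passed the test in the main fit. In some of the alternative analyses Noc3l, Pno1 and Gtpbp4 passed as lower, with limma adjusted p down to 0.0159, 0.0188 and 0.0291.

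**Figure D4:**
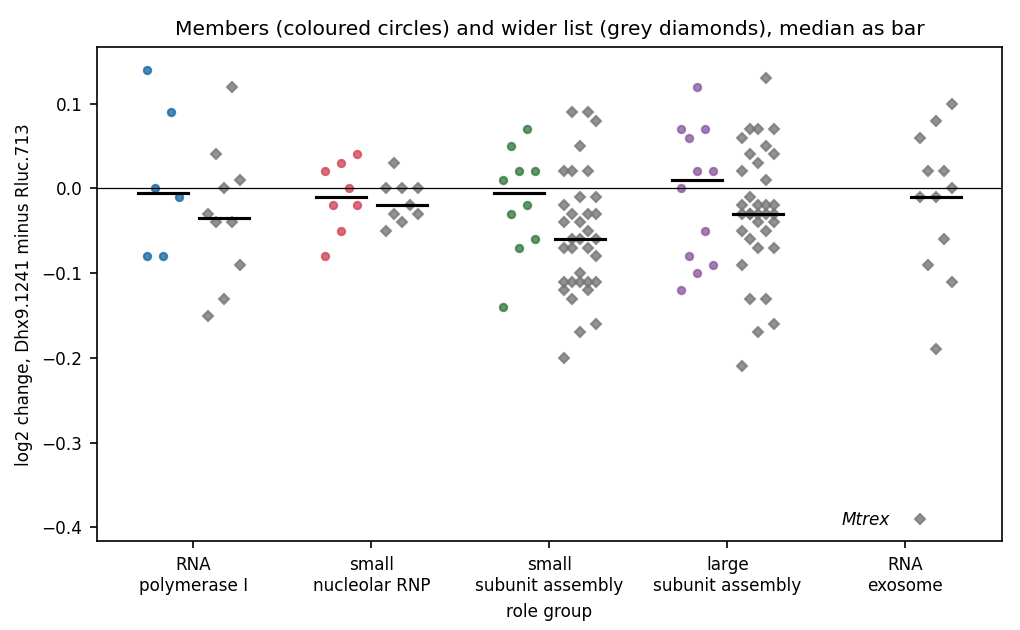
Log2 change, Dhx9.1241 minus Rluc.713, of the nucleolar genes (coloured circles) and of the wider list (grey diamonds) by role, 1 point per gene, with medians as black bars; the 3 abundant nucleolar proteins are left out. All circles lie between -0.14 and 0.14, the diamonds of small-subunit assembly centre on -0.06, and Mtrex lies apart at -0.39.

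The brightest 25% of genes, to which most of the nucleolar genes belong, had a median change of -0.003, against -0.005 for the 39, and 4.41% of them passed the test. The plot of change against signal shows the 39 genes among all others, from a mean signal of 8.04, for Mrto4, to 13.89, for Fbl.

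**Figure D5:**
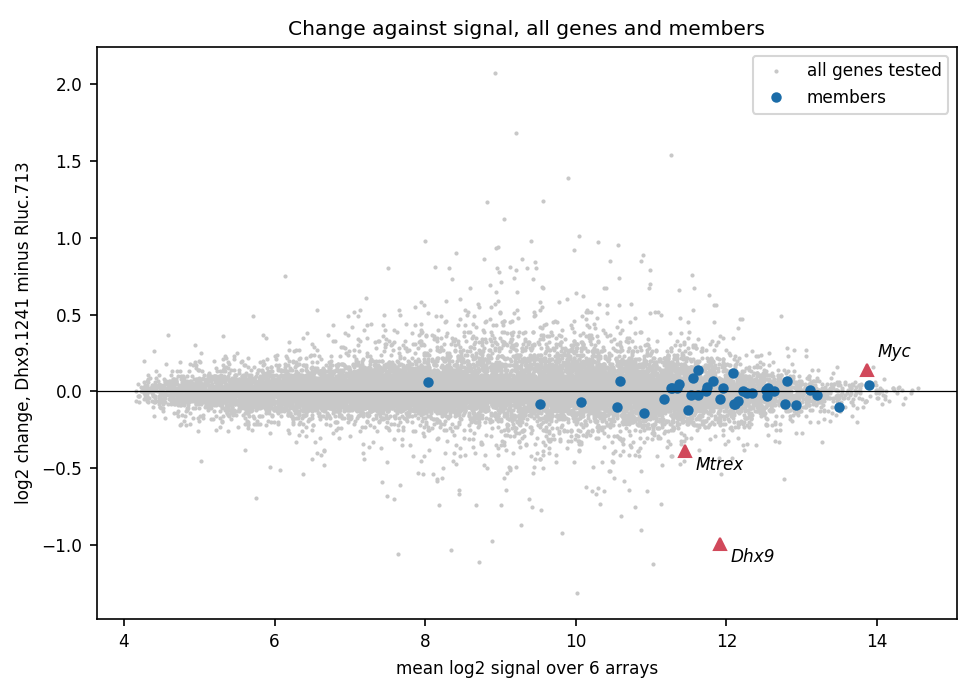
Log2 change, Dhx9.1241 minus Rluc.713, against mean log2 signal over the 6 arrays for all 18784 genes tested (grey), the 39 nucleolar genes (blue circles), and Dhx9, Mtrex and Myc (red triangles). The blue points stay within 0.14 of zero, with Dhx9 at -0.99 and Mtrex at -0.39 below them.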

How the data were processed

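The deposited values are log2 signals, 1 per probe set and array, made by the authors with RMA, per the submitters' processing notes, from total RNA labelled by in vitro transcription with an Affymetrix kit (labels' protocols). The version and settings of RMA and how probe sets were defined: not given in the sources used here. That the scale is log2 was read from the values, which span 3.969 to 14.57. Of 21212 probe sets, 18786 had 1 gene symbol in the platform annotation, 6 had several and 2420 had none here, and only the first kind was tested. Symbols were updated by Entrez number (18775 matched, assembly GRCm38.p6, names only), and of 2 genes with more than 1 probe set the one with the highest mean was used, which left 18784 genes with no filter on signal.

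Groups follow the hairpin that the labels name, with 3 arrays each. Differences, Dhx9.1241 minus Rluc.713, came from a fit over all genes with limma 3.58.1 (lmFit, eBayes) in R 4.3.3, two-sided, without covariates, with Benjamini-Hochberg adjustment across all genes. Fits were tested on 10 simulated data sets with independent noise on each array. There a log2 change of 0.3 passed in 41.2% of cases and one of 0.5 in 77.2%. Of the genes that passed, 3.88% were false. Smaller changes, such as those of the nucleolar genes, were not simulated, nor were shifts shared by the genes of an array. The genes and lists were chosen with earlier results of these data known. Values on every array are given for genes at an unadjusted p under 0.05 with all 6 arrays, the 2 largest changes of each role group, and the 2 brightest and 2 dimmest genes. Alternatives were 3 further normalizations, a filter on signal, another variance model, weights for arrays, a replicate block, all probe sets, and leaving out each array. The number of arrays limits the precision. No set test was run.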

Additional observations from a re-analysis of the deposited data

How the results depend on the processing

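None of the 39 nucleolar genes passed the limma test in any of the 14 alternatives, Mrto4 being absent from the one limited to genes at or above the median signal; 23 kept the sign of their change in all the alternatives they were in, and 16, all with small changes, did not. Their median change ran from -0.031, after median centring of the arrays, to 0.007, after a second quantile normalization. Dhx9 passed in all 14, with a change of -1.02 to -0.96. The counts over all genes moved. The genes higher and lower in Dhx9.1241 numbered 507 and 360 after a second quantile normalization, 250 and 185 after median centring of the arrays, 503 and 345 after cyclic loess, 609 and 382 in the brighter part of the genes (at or above the median signal), 673 and 466 under limma's trended robust variance model, 669 and 542 under array weights, and 350 and 179 when every probe set was tested. Leaving out 1 array gave 126 to 497 higher and 70 to 399 lower; such fits have fewer arrays, and the highest counts came without Rluc.713 replicate 1. In the wider list 2 genes were lower after a second quantile normalization and after cyclic loess, 3 in the brighter part of the genes, 4 under the trended robust model and 4 under array weights, and 1 to 2 without 1 array; Noc3l was among them each time there were more than 1. The cause of these moves was not tested. With the replicate number as a block, 172 genes were higher and 92 lower. The deviations of same-numbered arrays from their group means correlated at -0.271, -0.339 and 0.239 over genes. With only 3 arrays in each group, these values cannot tell whether the numbers pair the arrays. The number of arrays limits the precision.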
